A study of Mus musculus with 8 samples.

Results

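The interstitial matrix of the heart, the scaffold of collagens, elastic fibres, proteoglycans and adhesive proteins between the muscle cells, was examined through 43 genes listed by name with earlier results of these data known, most of which encode proteins that cardiac fibroblasts secrete. Of these, 41 were measured among 18194 genes. Fbn1, the fibrillin of microfibrils, was not measured here, and Loxl2, a lysyl oxidase, was read only by probesets shared with another gene and was not used. RNA was taken from the whole hearts of 4 WT and of 4 SRC-2 KO mice that had undergone no stress, and each heart had its own array. SRC-2, a coactivator that helps nuclear receptors and other factors drive transcription, is encoded by Ncoa2, and the KO mice carry a germline ablation of it, which is not limited to the heart. All mice were males of the C57B/6Jx129Sv background with free access to food, described as littermates in the methods, and aged 10 to 12 weeks in the labels and 10 to 16 weeks in the methods. Since each array read RNA of a whole heart, fewer fibroblasts, less matrix RNA per fibroblast and a different share of atrial tissue cannot be told apart.

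Cardiac fibroblasts lay down fibrillar collagens, which carry load, and coat them with small proteoglycans that space the fibrils. Procollagens are trimmed and cross-linked outside the cell, elastin is deposited on microfibrils, and matricellular proteins such as periostin and SPARC adjust how cells attach to this scaffold. Metalloproteinases and their inhibitors set how fast it is turned over, and a stressed heart is known for fibrosis, an excess of these proteins.

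The Affymetrix mouse arrays gave a signal for each probeset, a group of short probes against a transcript, on a linear scale with every array scaled to the same trimmed mean. The brightest probeset stood for each gene, and the log2 fold change (log2FC) is the mean log2 signal of the KO hearts minus that of the WT hearts. Signals of different genes depend on their probes, so no result compares their levels, and brightness served only to pick which members are given heart by heart. The median signal was 77.0 to 87.3 among the WT arrays and 75.6 to 83.2 among the KO arrays. Ncoa2 had signals of 1660 to 2134 among the WT hearts and 235 to 267 among the KO hearts, so each heart matched its label. KO replicate 4 was the only KO heart with a higher mean correlation with the WT arrays (0.9764) than with the other KO arrays (0.9746). Its correlation with the other KO arrays was close to those of KO replicates 1 and 3 (0.9757 and 0.9752). Results that rest on KO replicate 4 are given with and without it. With 4 arrays a genotype, the precision of all values is limited.

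Matrix genes had lower values in the SRC-2 KO hearts as a rule, but single genes rarely passed a test across all genes. Of the 41 measured members, 37 (90.2%) had a lower KO than WT mean, against 53.1% of all genes measured. Their median log2FC was −0.50, against −0.03 over all genes. Since earlier results were known when the genes were listed, these counts describe the members and are no independent evidence of their direction. For 8 members (19.5%) the 4 KO signals lay below the 4 WT signals, as they did for 3.72% of all genes and for 4.56% of the 13211 genes with a mean signal of 50 or more. For 0 members did the KO signals all lie above, as they did for 3.12% of all genes. All 41 had a mean signal over the 8 hearts above 50, the level taken here as near background, and the lowest was 75.8.

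The genotypes were compared gene by gene in limma (Benjamini-Hochberg adjustment across every gene measured, threshold 0.05). The common-variance fit, which draws the spread of every gene toward a single value, called 0 members, and 0.0165% of all genes lower and 0.0055% higher. The trended fit draws it toward the spread of genes of like signal and called 1 member lower, Cilp2 (2.44% of the members), and 0 higher, against 0.253% of all genes lower and 0.121% higher. At an unadjusted p under 0.05, 16 members were lower and 0 higher in the common-variance fit (39% of members, against 6.09% of all genes lower and 3.95% higher). In the trended fit 26 were lower (63.4%) and 1, Ogn, higher, against 7.22% and 5.33% of all genes. The random variance model test of the methods called 0 members, and 3 lower and 1 higher over all genes. At that unadjusted p it had 16 members lower and 0 higher, against 6.37% and 4.34% of all genes.

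**Figure D1:**
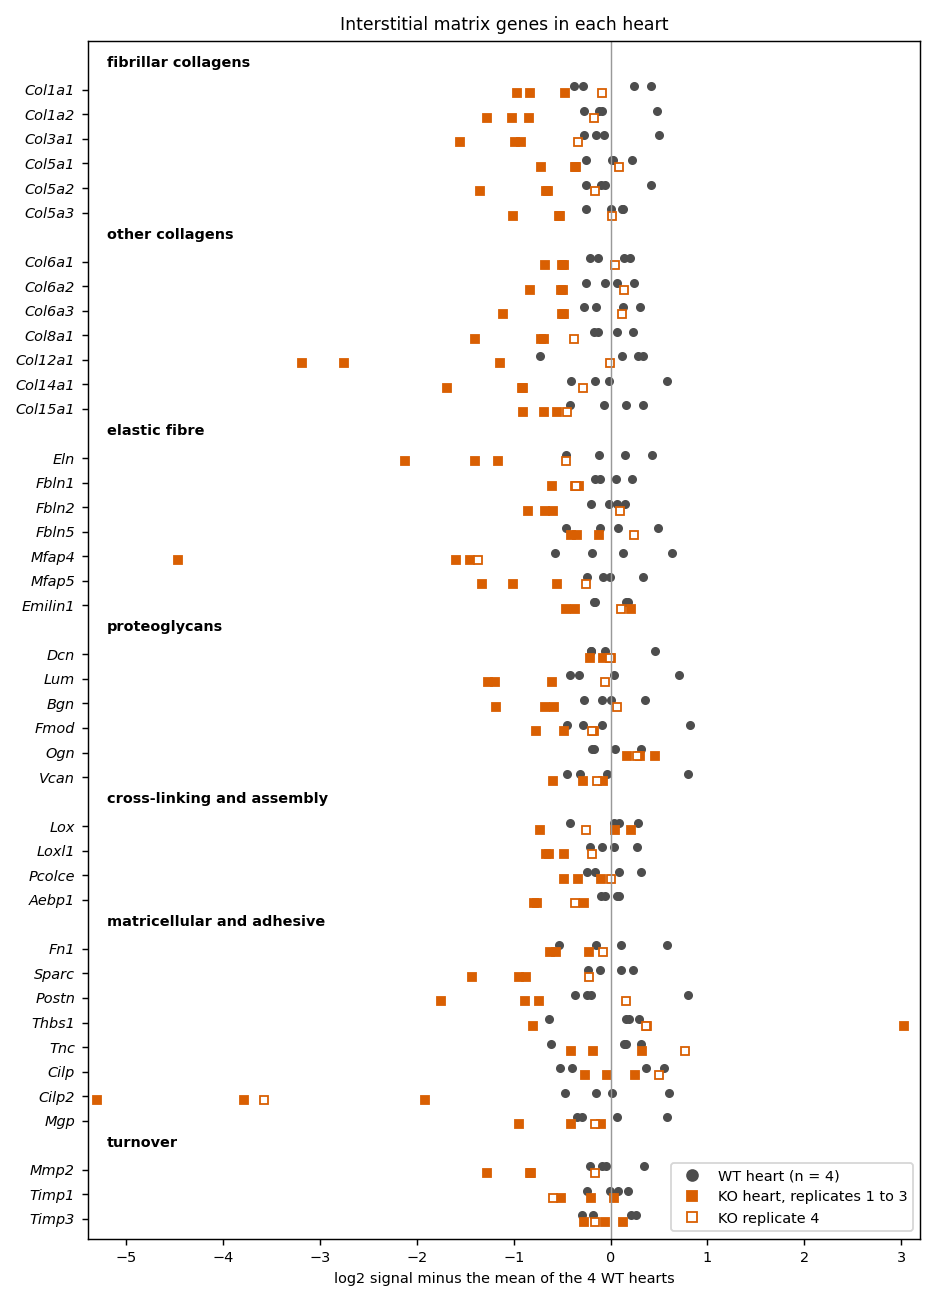
Each heart's log2 signal, relative to the average of the 4 WT hearts, for the 41 measured matrix genes, ordered by class. Circles are WT hearts (n = 4), filled squares KO replicates 1 to 3 and open squares KO replicate 4. For 8 genes the 4 KO hearts lie below the 4 WT hearts, and KO replicate 4 lies within the WT range for 30 of the 41 genes.

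The hearts did not contribute equally. The mean log2 signal over the 41 genes, set to 0 at the WT mean, was −0.18, 0.35, −0.14 and −0.03 in WT replicates 1 to 4 and −0.55, −0.60, −1.06 and −0.18 in KO replicates 1 to 4. KO replicates 1 to 3 lay below every WT heart, and KO replicate 4 lay just below the lowest of them. KO replicate 3 had the lowest signal of all 8 hearts for 27 members, and WT replicate 2 had the highest for 31. Among the KO hearts, replicate 4 was highest for 28 members. Its signal fell within the WT range for 30 members, compared with 12, 8 and 5 members in KO replicates 1, 2 and 3.

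Without KO replicate 4, 39 members had a lower KO mean, against 53.3% of all genes, with a median log2FC of −0.61. The 3 remaining KO signals lay below the 4 WT signals for 26 members (63.4%), against 8.28% of all genes. The common-variance fit still called 0 members and called 0.0055% of all genes lower, whereas the trended fit called 15 members lower (36.6%) and 0 higher, against 1.19% and 0.572% of all genes. The 15 were Col1a2, Col3a1, Col5a2, Col6a1, Col6a2, Col8a1, Col14a1, Eln, Fbln2, Mfap5, Bgn, Loxl1, Sparc, Cilp2 and Mmp2. KO replicate 4 was the highest KO heart for 28 members, so leaving it out was bound to widen most differences. Calls made without it are therefore no independent evidence. Without KO replicate 3, the lowest of all 8 hearts for 27 members, the median log2FC was −0.40. Leaving out any of the other 7 hearts gave between 0 and 2 member calls in the trended fit.

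**Figure D2:**
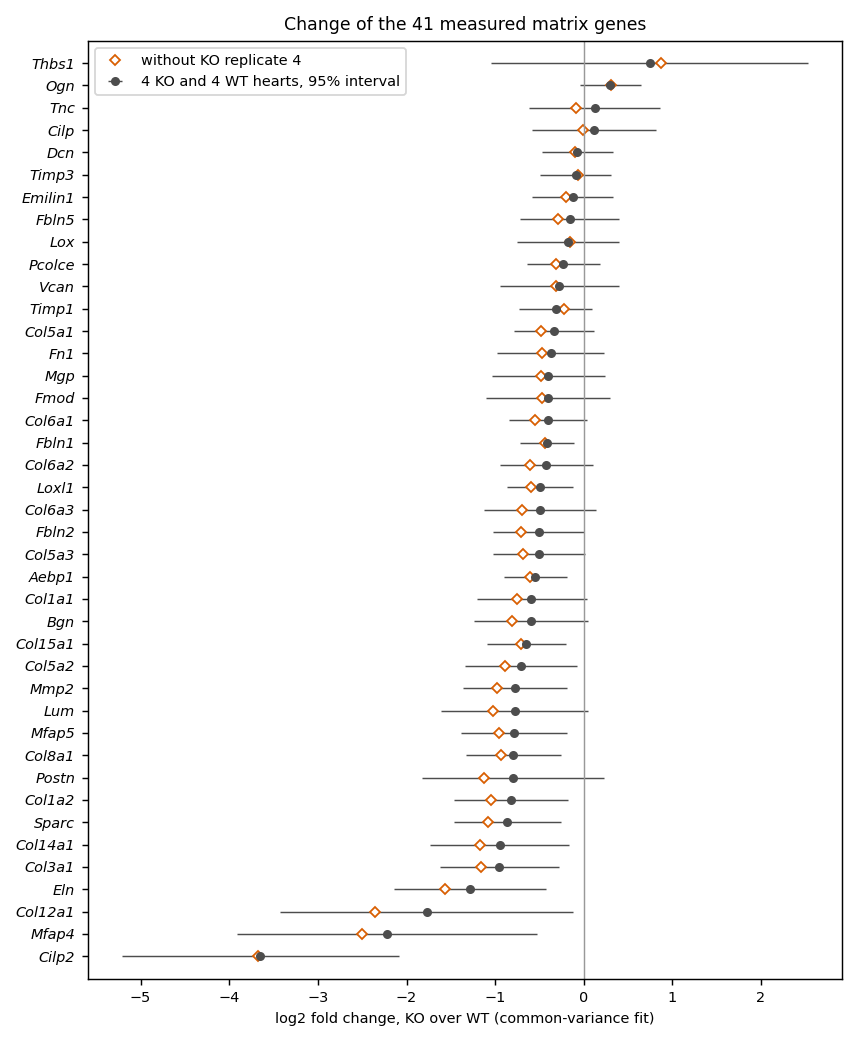
The log2 fold change (log2FC) of each measured matrix gene, KO over WT, in the common-variance fit. Filled circles with bars are values from 4 KO and 4 WT hearts with the 95% interval, and open diamonds leave out KO replicate 4. Of the 41 filled circles, 37 lie below 0.

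The fibrillar collagens, which form the tensile fibrils, had lower KO means in 6 of 6 genes. Their median log2FC was −0.65 (−0.82 without KO replicate 4 and −0.48 without KO replicate 3). Col3a1, which encodes the type III collagen of compliant tissue, had signals of 29637, 43853, 25648 and 28082 in the WT hearts and 16426, 15669, 10567 and 24580 in the KO hearts. The genotypes did not overlap, although KO replicate 4 came within a small margin of WT replicate 3. A dimmer Col3a1 probeset did overlap, with 2637 in KO replicate 4 and 2517 in WT replicate 3. The log2FC of the brightest probeset was −0.95 (standard error 0.29, adjusted p = 0.399 by the common-variance fit and 0.10 by the trended fit). In the trended fit without KO replicate 4, Col3a1 was lower by a log2FC of −1.16 (adjusted p = 0.0138). Both chains of type I collagen had lower KO means, with log2FC values of −0.59 for Col1a1 and −0.83 for Col1a2. For Col1a2 the WT signals ran from 10731 to 18066, and those of KO replicates 1 to 3 from 5366 to 7250, while KO replicate 4, at 11554, lay among the WT hearts. The type V collagens, which start and limit fibril growth, had log2FC values of −0.34 for Col5a1, −0.71 for Col5a2 and −0.51 for Col5a3. In all 6 genes KO replicate 3 was the lowest heart and KO replicate 4 the highest KO heart.

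The promoters of 5 members are shown because they belong to collagen and matricellular genes with some of the larger differences (Col1a2, Col3a1, Sparc and Cilp2) and to the proteoglycan gene with the opposite sign (Ogn). The windows are from RefSeq on GRCm38.p6 and run from 250 bases before the annotated start to 50 bases after it, written 5′ to 3′ on the strand of the gene. Capitals mark matches on either strand to 4 short motifs. They are CCAAT (the CCAAT box), the TATA box searched as TATAAA, the GC box searched as GGGCGG, and the half-site of nuclear receptors, with which SRC-2 works, searched as AGGTCA.
Col1a2 (chr6:4505368-4505667, plus strand): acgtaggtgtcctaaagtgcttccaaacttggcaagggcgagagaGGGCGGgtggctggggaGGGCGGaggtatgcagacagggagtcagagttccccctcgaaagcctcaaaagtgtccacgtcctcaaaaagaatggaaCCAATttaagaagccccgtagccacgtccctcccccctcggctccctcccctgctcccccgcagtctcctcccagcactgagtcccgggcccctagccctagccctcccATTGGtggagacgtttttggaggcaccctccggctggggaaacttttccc
Col3a1 (chr1:45311288-45311587, plus strand): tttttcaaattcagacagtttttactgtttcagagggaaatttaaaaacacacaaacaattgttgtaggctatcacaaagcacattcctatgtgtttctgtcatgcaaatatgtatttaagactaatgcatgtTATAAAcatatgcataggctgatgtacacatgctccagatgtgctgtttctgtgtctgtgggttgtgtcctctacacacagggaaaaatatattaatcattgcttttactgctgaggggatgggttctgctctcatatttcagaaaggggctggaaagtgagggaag
Sparc (chr11:55420031-55420330, minus strand): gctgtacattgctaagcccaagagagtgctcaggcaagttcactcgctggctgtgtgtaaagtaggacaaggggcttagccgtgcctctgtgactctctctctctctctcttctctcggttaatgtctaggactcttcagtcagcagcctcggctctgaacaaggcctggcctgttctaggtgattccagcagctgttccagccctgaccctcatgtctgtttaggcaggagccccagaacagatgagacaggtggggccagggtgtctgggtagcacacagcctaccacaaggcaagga
Cilp2 (chr8:69887343-69887642, minus strand): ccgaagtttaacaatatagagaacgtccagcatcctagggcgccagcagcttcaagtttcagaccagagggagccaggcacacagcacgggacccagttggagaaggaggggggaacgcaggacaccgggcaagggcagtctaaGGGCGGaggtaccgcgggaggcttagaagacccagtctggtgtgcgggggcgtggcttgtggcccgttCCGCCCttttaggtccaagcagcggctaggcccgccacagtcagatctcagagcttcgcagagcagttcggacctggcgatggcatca
Ogn (chr13:49607765-49608064, plus strand): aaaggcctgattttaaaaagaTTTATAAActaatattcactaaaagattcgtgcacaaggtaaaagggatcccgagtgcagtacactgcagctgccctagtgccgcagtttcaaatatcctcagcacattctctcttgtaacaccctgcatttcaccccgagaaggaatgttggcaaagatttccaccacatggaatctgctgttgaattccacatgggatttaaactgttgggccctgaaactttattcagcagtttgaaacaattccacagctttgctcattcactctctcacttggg
Col1a2 held 2 CCAAT and 2 GGGCGG matches, Col3a1 held 1 TATAAA match, Cilp2 held 2 GGGCGG matches, Ogn held 2 overlapping TATAAA matches on opposite strands, and Sparc held 0 of the 4 motifs. Windows were found for 27 of the 43 members, 32 windows in all. Of these, 59.4% held GGGCGG, 25% CCAAT, 15.6% TATAAA and 6.25% AGGTCA. Over all 32851 windows of the same length, the shares were 35.7%, 37.4%, 13.6% and 16.3%. A match is only a run of letters in the window, and no binding was measured.

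The other collagens, which form networks or decorate fibrils, had lower KO means in 7 of 7 genes, with a median of −0.65 (−0.71 without KO replicate 4). Col8a1, a short network collagen of vessels, had signals of 1568, 2019, 1531 and 1797 in WT and 1041, 1069, 649 and 1322 in KO hearts, giving a log2FC of −0.80 (standard error 0.23, adjusted p = 0.0937, trended fit). Col15a1, a collagen beside basement membranes, had 658, 1108, 837 and 980 in WT and 546, 471, 601 and 642 in KO hearts, giving a log2FC of −0.65 (standard error 0.19). The genotypes did not overlap for either gene, and for Col15a1 the lowest WT and the highest KO heart lay close together. In Col15a1 the lowest KO heart was replicate 2. The type VI collagens, which form beaded filaments around cells, had log2FC values of −0.41 for Col6a1, −0.42 for Col6a2 and −0.50 for Col6a3. Col6a2 had signals of 4711, 5781, 4119 and 5152 in WT and 3430, 3493, 2753 and 5403 in KO hearts. KO replicate 4 was thus higher than all but 1 of the WT hearts, and the other 3 KO hearts were lower than all of them. Without it, Col6a2 was lower by −0.61 (adjusted p = 0.0334, trended fit). The fibril-associated collagens had values of −1.77 for Col12a1 and −0.95 for Col14a1. Col12a1 was dim, with KO signals of 12.1 to 109.8, and its log2FC was −0.86 with signals under 50 set to 50.

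Genes of the elastic fibre had lower KO means in 7 of 7 measured members, and 3 of the 8 genes without overlap were in this class. Their median was −0.51 (−0.71 without KO replicate 4 and −0.44 without KO replicate 3). Mfap4, a microfibril-associated glycoprotein, had signals of 751, 1740, 1227 and 984 in WT and 409, 370, 50.8 and 434 in KO hearts. The 4 KO hearts lay below the 4 WT hearts, and KO replicate 3 lay far below the rest. The log2FC was −2.22 (95% interval −3.91 to −0.53, adjusted p = 0.419 by the common-variance fit and 0.119 by the trended fit). Without KO replicate 3 it was −1.47 and passed in the trended fit. Mfap5, another microfibril protein, had 2204, 2929, 1969 and 2315 in WT and 1591, 1162, 925 and 1951 in KO hearts, giving a log2FC of −0.79 (standard error 0.26). Its highest KO heart, replicate 4, nearly reached its lowest WT heart. Fbln1, a fibulin that binds elastic fibres and basement membranes, had 2311, 2591, 2913 and 2229 in WT and 1934, 1643, 1992 and 1947 in KO hearts, giving a log2FC of −0.41 (standard error 0.13). Here KO replicate 4 lay between replicates 1 and 3. A dimmer Fbln1 probeset, with a mean signal of 1881, overlapped between genotypes, with a log2FC of −0.20. Eln, which encodes elastin, had WT signals of 1337 to 2479 and KO signals of 423 to 1341 (log2FC −1.29, standard error 0.37, adjusted p = 0.0863, trended fit). It overlapped only through KO replicate 4, whose 1341 just exceeded the lowest WT signal. A dimmer Eln probeset did not overlap, with 140 to 373 among the WT hearts and 20.4 to 45.3 among the KO hearts. Fbln2 had a log2FC of −0.51, and Fbln5 and Emilin1, which help elastin to assemble, had −0.16 and −0.13 with wide overlap.

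The proteoglycans were divided. Their median log2FC was −0.34 (−0.40 without KO replicate 4), and −0.07 without WT replicate 2, the WT heart in which this class was highest. Dcn, which encodes decorin, a collagen-binding proteoglycan of fibroblasts, had signals of 25651, 40587, 28283 and 25531 in WT and 27921, 25437, 29445 and 29366 in KO hearts. Apart from WT replicate 2, the hearts of both genotypes covered nearly the same range. This gave a log2FC of −0.07, with a 95% interval of −0.48 to 0.33, and turned to 0.081 without WT replicate 2. Ogn, which encodes osteoglycin, a relative of decorin, had 8052, 11430, 8182 and 9448 in WT and 10362, 11338, 12581 and 11060 in KO hearts. All KO hearts were above 3 of the WT hearts, and WT replicate 2 exceeded 3 of the KO hearts. Its log2FC was 0.30, with a 95% interval of −0.04 to 0.64 (adjusted p = 0.540 by the common-variance fit and 0.296 by the trended fit). Lum (lumican) and Bgn (biglycan) had lower KO means, with log2FC values of −0.78 and −0.60, and in the trended fit without KO replicate 4 Bgn was lower by −0.82 (adjusted p = 0.0297). Fmod (fibromodulin) had −0.40 and Vcan, a large aggregating proteoglycan, −0.27, both with overlapping hearts.

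The departure of Ogn from Col3a1, both products of fibroblasts, was seen in each KO heart, a comparison chosen after the values were seen and not tested. Relative to the WT mean, the log2 signal of Ogn minus that of Col3a1 was −0.12, −0.18, 0.11 and 0.19 in WT and 1.10, 1.29, 2.01 and 0.61 in KO hearts. KO replicate 4 again lay nearest to the WT hearts, though above all of them.

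**Figure D3:**
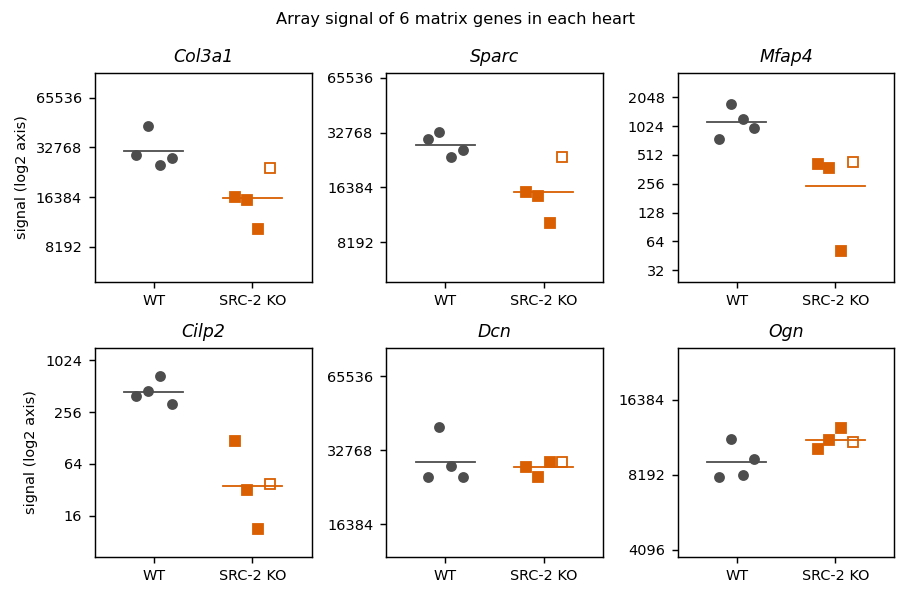
Array signal of Col3a1, Sparc, Mfap4, Cilp2, Dcn and Ogn in each heart, on log2 axes that differ between genes. Circles are WT hearts (n = 4), squares are SRC-2 KO hearts (n = 4, open for replicate 4), and lines are means of the log2 signals. The genotypes do not overlap for Col3a1, Mfap4 and Cilp2, KO replicate 4 lies among the WT hearts for Sparc, and the genotypes overlap for Dcn and Ogn.

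Genes of cross-linking and assembly had lower KO means in 4 of 4 measured members, with a median of −0.36 (−0.45 without KO replicate 4). Aebp1, which encodes a secreted protein that binds collagen, had signals of 437, 484, 425 and 476 in WT and 264, 376, 268 and 352 in KO hearts. The genotypes did not overlap, and KO replicate 2 was the highest KO heart. This gave a log2FC of −0.55 (standard error 0.15, adjusted p = 0.385 by the common-variance fit and 0.180 by the trended fit). Pcolce, an enhancer of the proteinase that trims procollagen, had 6089, 8479, 5726 and 7229 in WT and 6328, 5379, 4860 and 6817 in KO hearts, and a log2FC of −0.23 with a 95% interval of −0.64 to 0.18. Its hearts overlapped widely. Of the lysyl oxidases, which cross-link collagen and elastin, Loxl1 had −0.49 and Lox −0.18. Loxl1 overlapped only through KO replicate 4, and without it was lower by −0.59 (adjusted p = 0.0260, trended fit).

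The matricellular and adhesive genes held both the member with the greatest difference and most of those with a higher KO mean. Their median log2FC was −0.39 (−0.48 without KO replicate 4 and −0.19 without WT replicate 2). Cilp2, a relative of the cartilage intermediate layer protein, had signals of 399, 447, 675 and 321 in WT and 118, 32.1, 11.2 and 37.1 in KO hearts. The KO hearts lay far below the WT hearts, and 3 of them were under 50, near background. The log2FC was −3.65 (standard error 0.67, adjusted p = 0.252 by the common-variance fit and 0.020 by the trended fit), and −2.84 with signals under 50 set to 50. The trended call was lost when any WT heart was left out (adjusted p = 0.0536 to 0.0951) and kept when any KO heart was. Its relative Cilp had 431, 833, 734 and 397 in WT and 556, 680, 473 and 806 in KO hearts, with a log2FC of 0.11 and a 95% interval of −0.59 to 0.82. The sign of Cilp turned when WT replicate 1, WT replicate 4 or KO replicate 4 was left out.

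Sparc, which encodes a collagen-binding matricellular protein, had signals of 30371, 33014, 23923 and 26124 in WT and 15356, 14642, 10429 and 24137 in KO hearts. KO replicates 1 to 3 were below every WT heart, and KO replicate 4 lay just above WT replicate 3. The log2FC was −0.87 (standard error 0.26, adjusted p = 0.399 by the common-variance fit and 0.0995 by the trended fit). Without KO replicate 4 Sparc was lower by −1.08 (adjusted p = 0.00978, trended fit). Postn, which encodes periostin, a protein known for its rise in activated fibroblasts, had WT signals of 3157 to 7102 and KO signals of 1204 to 4556, with a log2FC of −0.80 and overlap. Fn1 (fibronectin) had −0.38, and Mgp, an inhibitor of calcification, −0.40. Thbs1 (thrombospondin 1) had 170, 174, 98.2 and 187 in WT and 1242, 198, 87.3 and 197 in KO hearts. Its log2FC of 0.74 was set by KO replicate 1 and was −0.020 without that heart. Tnc, which encodes tenascin C, a protein of developing and injured tissue, was dim, with 86.9, 77.9, 45.6 and 76.5 in WT and 52.4, 61.3, 87.1 and 119 in KO hearts (log2FC 0.12, 95% interval −0.62 to 0.86). Its hearts overlapped, and the sign turned to −0.081 without WT replicate 3 and to −0.092 without KO replicate 4.

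Of the turnover genes, Mmp2, which encodes the gelatinase that degrades denatured collagen, had WT signals of 3065 to 4503 and KO signals of 1458 to 3158 (log2FC −0.77, standard error 0.25, adjusted p = 0.117, trended fit). It overlapped only through KO replicate 4, and without it was lower by −0.98 (adjusted p = 0.0112, trended fit). Timp1 and Timp3 encode inhibitors of these proteinases. Timp3 had 3855, 5250, 5057 and 3558 in WT and 4788, 4184, 3606 and 3915 in KO hearts, with overlapping hearts and a log2FC of −0.09 (95% interval −0.49 to 0.31). Timp1 had a log2FC of −0.32.

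**Figure D4:**
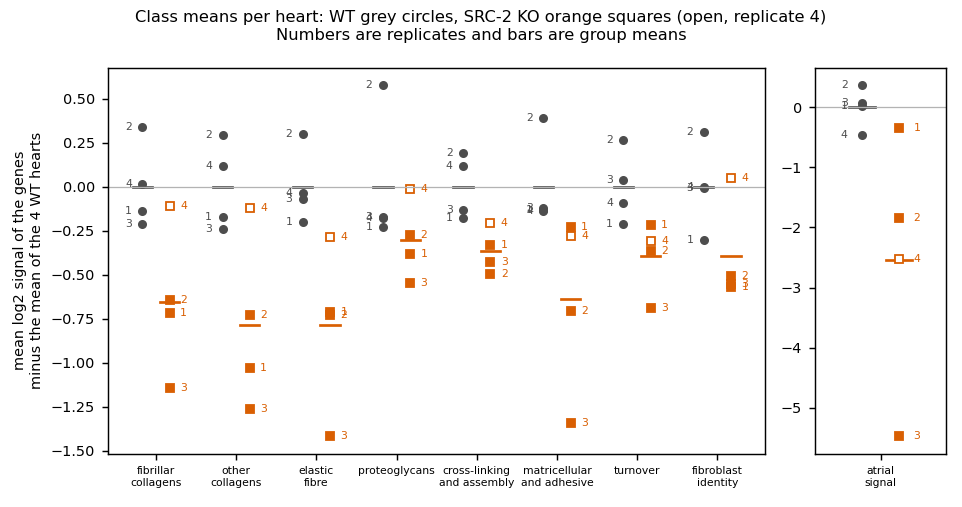
Mean log2 signal of each class per heart, relative to the average of the 4 WT hearts, for the 7 matrix classes and 16 fibroblast identity genes on the left and for the mean of the atrial genes Sln, Myl7 and Myl4 on the right, which has its own axis. Circles are WT and squares SRC-2 KO hearts with their replicate numbers (n = 4 each), and bars are group means. KO replicate 4 is the highest KO heart for the collagens, while KO replicate 1 is the highest for the atrial genes.

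Other probesets of the members gave similar signs. Of the 41 members, 31 had more than 1 probeset, and in 25 of these the second brightest had a mean signal of 50 or more. For 24 of the 25 it had the same sign of change as the brightest. The exception was Col12a1, whose second probeset lay near background (mean signal 50.1, log2FC 0.95). Whether the genotypes overlapped did depend on the probeset. For Col3a1, Fbln1, Mfap5 and Aebp1 the brightest probeset did not overlap and the second brightest did. For Col1a2, Col5a2, Eln and Sparc it was the reverse.

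Further genes of the matrix, grouped in lists written by hand, were read beside the members. Genes of collagen synthesis, such as the hydroxylases and chaperones of the endoplasmic reticulum, had lower KO means in 12 of 12 measured (median −0.29), and for 2 of them, Pcolce2 and P4hb, the genotypes did not overlap. Pcolce2, a second enhancer of procollagen trimming, had a log2FC of −0.48 (adjusted p = 0.0770, trended fit). Other matrix genes had lower KO means in 21 of 24 (median −0.44), without overlap for Tgfbi and Mfap2. Nid1, a linker of basement membranes, had −0.72. Neither list had a call in the common-variance or the trended fit with all hearts. Of the matrix proteases and inhibitors, 6 had lower and 6 higher KO means (median −0.07). Mmp14, the membrane-anchored proteinase that activates the product of Mmp2, had signals of 930, 968, 905 and 1054 in WT and 437, 653, 561 and 666 in KO hearts. The genotypes were well apart, and Mmp14 was lower in the trended fit (log2FC −0.75, standard error 0.16, adjusted p = 0.308 by the common-variance fit and 0.0441 by the trended fit).

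Genes of fibroblast identity, which serve to check the label, were all measured and none had a mean signal under 50. Their KO mean was lower for 15 of 16, with a median of −0.36 (−0.52 without KO replicate 4), and 0 were called with all hearts. Their summed signal was 66314 to 109320 among the WT hearts and 64570 to 83409 among the KO hearts. Relative to the WT mean, their mean log2 signal was −0.30, 0.31, −0.01 and −0.00 in WT and −0.57, −0.50, −0.55 and 0.05 in KO hearts, so KO replicate 4 stood at the WT level here too. Igf1, a growth factor that cardiac fibroblasts secrete, and Pdgfrl did not overlap, with log2FC values of −0.89 and −0.95. Pdgfra and Tcf21, which mark resting cardiac fibroblasts, had −0.43 and −0.67, both with overlapping hearts. Other genes of the list differed less, with −0.18 for Ddr2, −0.07 for Gsn, −0.0004 for Scara5 and 0.08 for Clec3b. Of 8 measured myofibroblast genes, 5 had lower and 3 higher KO means (median −0.25). Acta2, the smooth muscle actin that marks activated fibroblasts and also vessel walls and immature myocytes, rose in the trended fit. Its signals were 22846, 19454, 19127 and 23289 in WT and 39204, 27061, 34826 and 41324 in KO hearts, giving a log2FC of 0.74 (standard error 0.16, adjusted p = 0.314 by the common-variance fit and 0.0422 by the trended fit). It thus differed in sign from 37 of the 41 matrix genes. Acta2 was read by a probeset of the kind marked for cross-hybridisation. Tagln and Cnn1 of the same list had lower KO means, with log2FC values of −0.12 and −1.19 and overlapping hearts.

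Markers of atrial myocytes also had lower KO means as a rule, but the hearts did not follow the order seen for the matrix genes throughout. Of 13 such genes, 12 had lower KO means, 8 without overlap, with a median of −1.50, and 4 were lower in the trended fit. Their summed signal was 166470 to 274810 among the WT hearts and 22603 to 204360 among the KO hearts, and none had a mean under 50. The mean log2 signal of Sln, Myl7 and Myl4, set to 0 at the WT mean, was 0.02, 0.37, 0.07 and −0.46 in WT and −0.35, −1.84, −5.47 and −2.52 in KO hearts. KO replicate 3 was lowest for these genes and for 27 of the matrix genes. Apart from KO replicate 4 and WT replicate 4, the hearts had the same order by atrial value as by matrix mean. It ran upward from KO replicate 3 through KO replicates 2 and 1 and WT replicates 1 and 3 to WT replicate 2. KO replicate 1 had an atrial value within the WT range but a matrix mean of −0.55, below every WT heart, and KO replicate 4 had the second lowest atrial value but the highest matrix mean of the KO hearts. With the atrial value of each heart as a covariate, 35 of 41 members had a lower fitted KO value, with a median of −0.33 and 0 calls. Over all genes, 9394 of 18194 were lower in that fit, with a median of −0.016. The atrial values of KO replicates 2 to 4 lay below every WT heart, so this fit separates atrial content from genotype poorly. The class medians in that fit were −0.39 for fibrillar collagens, −0.50 for other collagens, −0.41 for elastic fibre, −0.39 for cross-linking and assembly, −0.25 for matricellular and adhesive genes, and −0.06 each for proteoglycans and turnover. Cilp2 had −2.07 and Mfap4 −0.61 in that fit. The part of atrial content in the matrix values was not tested.

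Markers of other cell types were read in the same way, with no call unless stated. The lower KO means numbered 8 of 9 for endothelial genes (median −0.27), 9 of 9 for macrophages (−0.37), 6 of 7 for epicardium (−0.63), 8 of 9 for valve and cartilage (−0.53, with 4 near background), 5 of 6 for pericytes (−0.13) and 3 of 3 for Schwann cells (−0.21). They numbered 0 of 10 for the ventricular myocyte list (median 0.19), most of whose genes are heart muscle genes not limited to ventricles. Lower KO means numbered 1 of 4 for adipocytes (0.61) and 0 of 3 for erythrocytes (0.59), each list with 1 gene near background. They numbered 4 of 7 for smooth muscle (−0.10), where Acta2 was the single gene called. Of the endothelial genes, Cldn5 was the one without overlap, and 3 of the macrophage genes had none. The part of these cell types in the matrix values was not tested.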

How the data were processed

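Affymetrix Mouse 430 2.0 arrays were run on RNA of 4 WT and 4 SRC-2 KO hearts. The methods name RMA, but the deposited values are linear intensities (0.219 to 124739) that the authors scaled to the same mean after trimming 2% of probesets at each end, so log2 of the intensities was taken in place of the log2 RMA values that the design allowed for. Of 45101 probesets, the 34958 with 1 gene symbol were used, 932 with several were not named, and 9211 were unlisted (64 of them controls). The probeset with the highest mean log2 signal stood for each gene.

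The genotypes were compared with limma 3.58.1 under R 4.3.3 (lmFit and eBayes, two-sided, Benjamini-Hochberg adjustment over 18194 genes, threshold 0.05), after the fits were tested on simulated data. The common-variance fit was the main one. Alternatives were the trended fit, the random variance model, the mean of all probesets, removal of cross-hybridising probesets, a filter and a floor at 50, median centring, quantile normalization, a replicate block, the atrial covariate and leaving out each heart. No batch was named in the sources used here.

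Members and the 17 lists (167 symbols, 12 unmatched) were chosen with earlier results of these data known. Values in every heart are given for members whose genotypes did not overlap, that passed either fit, were the brightest of their class or had a higher KO mean. Up to 3 genes of small p were named from each other list, and a few more after their values were seen. Promoters were read from RefSeq windows in Python 3.11.15, and figures were drawn with matplotlib 3.10.9.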

Additional observations from a re-analysis of the deposited data

Results flagged for a closer look

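In 6 of 98 groups of 4 hearts, 1 heart lay farther from the others than a Dixon test at the 95% level allows, and chance gives about 5% of groups. The value given is the gap to the nearest heart divided by the whole range, both in log2 signal, while the signals beside it are linear. Among single genes, KO replicate 3 was low for Mfap4 (0.925, signal 50.75 against 370.2 in the nearest KO heart) and KO replicate 2 was low for Fbln1 (0.846, 1643 against 1934). WT replicate 2 was high for Postn (0.859, 7102 against 3538), and WT replicate 3 was low for Thbs1 (0.851, 98.15 against 169.6). Among class means, WT replicate 2 was high for the proteoglycans (0.934) and for the matricellular and adhesive genes (0.965).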

How the results depend on the processing

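Across the alternatives, the count of members with a lower KO mean (35 to 39 when 1 heart was left out) and the median log2 fold change of the members (−0.61 to −0.40 when 1 heart was left out) kept their direction, and 0 members were called higher in any of them. Members called lower numbered 0 by the common-variance and 1 by the trended method, and 0 to 15 in trended fits that left out 1 heart. The 15 came without KO replicate 4, 2 (Cilp2 and Mfap4) without KO replicate 3, and 1 without KO replicate 1 or 2. Members with every KO signal below every WT signal numbered 8, and 8 to 26 when 1 heart was left out, 26 of them without KO replicate 4. Over all genes, the 3 lower calls became 46 in the trended fit, 1 with the mean of all probesets, 1 to 2 when 1 heart was left out and 3 to 216 in such trended fits. The 1 higher call became 22 in the trended fit, 0 with the mean of all probesets, the filter or the floor at 50 or quantile normalization, 0 to 1 when 1 heart was left out and 2 to 104 in such trended fits. The replicate numbers of the labels did not pair the hearts (correlations of 0.06, −0.08, −0.02 and 0.11), and with the replicate block 0 genes were called lower and 0 higher.

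Of the named genes, 5 turned sign, none of which was called in any of these fits. Cilp had values of −0.018, −0.058 and −0.014 without WT replicate 1, WT replicate 4 and KO replicate 4 (−0.058 to 0.30 over all hearts left out), Dcn had 0.081 without WT replicate 2 (−0.14 to 0.081), and Thbs1 had −0.020 without KO replicate 1 (−0.020 to 1.26). Tnc had −0.081 without WT replicate 3 and −0.092 without KO replicate 4 (−0.092 to 0.30), and −0.23 with the atrial covariate, under which Timp3 had 0.14. The cause was not tested where no heart is named. Signals near background limit Cilp2, Col12a1 and Tnc.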

Other observations

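Thbs1 was not alone in standing high in KO replicate 1. Ccn2, which encodes a matricellular growth factor partner, had signals of 10675, 12400, 10618 and 7755 in WT and 42319, 9177, 5621 and 8234 in KO hearts. Ccn1, its relative, had 4750 in KO replicate 1 and 895 to 2033 in the other hearts, and Adamts1, a secreted proteinase, had 3671 there and 716 to 1504 in the others. These 4 genes were put side by side after their values were seen, and the pattern rests on 1 heart. Their log2 fold changes over all hearts were 0.74, 0.18, 0.02 and 0.71, and none passed in either fit.

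Beyond the matrix genes, Nr2f2, Tbx5 and Stard10 of the atrial list were lower in the trended fit, by a log2FC of −1.16, −1.03 and −1.64 (adjusted p = 0.0368, 0.0368 and 0.0185), and their genotypes did not overlap. C1qc, a complement chain of macrophages, did not overlap either, with 1735, 1640, 1807 and 1419 in WT and 891, 1106, 1082 and 1362 in KO hearts, giving a log2FC of −0.58 (adjusted p = 0.0869, trended fit).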
